A study of Mus musculus with 5 samples.

Results

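Respiratory complex I, or NADH:ubiquinone oxidoreductase, was represented in the files by 42 of 33894 genes, chosen as every gene whose name begins with Nduf and is not marked as a pseudogene by the ending -ps. Of these, 36 encode subunits of the complex and 4, Ndufaf1 to Ndufaf4, encode assembly factors. The remaining 2, Ndufa4 and Ndufa4l2, carry the name without being subunits of complex I: Ndufa4 is now placed in complex IV, and Ndufa4l2 is its paralogue. The rule goes by gene name and has no threshold on a measured value.

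RNA was sequenced from haematopoietic stem cells of mouse bone marrow at 8 weeks of age, sorted by flow cytometry for high c-Kit and Sca1 and for the absence of lineage markers, CD34 and Flt3, with 6K cells in each library. The first group held 3 libraries labelled Lrp5/6 double knockout (dKO), from mice that carry Vav-cre with Lrp5 fl/fl and with Lrp6 fl/fl. There Cre is driven by the Vav promoter, which acts throughout the blood lineages, and cuts floxed copies of Lrp5 and Lrp6, the co-receptors for Wnt ligands. The second group held 2 wild type (WT) libraries, for which no Cre transgene is named, so that the transgene and the loss of the genes cannot be told apart. Whether the libraries came from different mice is not stated, and p-values therefore describe only the spread between these samples, which may be technical.

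Complex I takes electrons from NADH, passes them along a chain of iron-sulphur clusters to ubiquinone and pumps protons across the mitochondrial inner membrane. Its matrix arm holds the NADH site and the clusters, and its membrane arm holds the proton pumps, whose core proteins are encoded by the mitochondrial genome. The Nduf genes are all nuclear: a few encode the catalytic core of the matrix arm, and the others encode accessory subunits or factors that put the complex together. Haematopoietic stem cells are known to rely on glycolysis more than their progeny do, and they increase mitochondrial respiration as they differentiate.

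The libraries held 16028512 to 28027458 counts, and 13696 genes passed the filter on low counts and were tested. The targeted genes were not lower in the libraries labelled dKO: Lrp6 had 790, 260 and 767 counts there, against 660 and 232 counts in WT, and Lrp5 had 37, 2 and 71 counts in dKO, against 7 and 32 in WT. The deleted exons are not named in the labels, so whole-gene counts do not check the deletion, and the direction of every comparison rests on the labels. Of the stem cell marker list used here, the sort selected only for the proteins of Kit and Ly6a (Sca1). All genes of that list, among them Kit, Ly6a, Slamf1, Procr, Mecom, Hlf and Fgd5, had counts in every library. They summed to 1735 to 1907 CPM (counts scaled to library size, with TMM factors) in dKO and to 1320 and 912 CPM in WT, and 7 of the 8 had a log2 fold change above 0. Transcripts of Cd34 and Flt3, whose proteins the sort excluded, were also present, at a sum of 1268 to 1446 CPM in dKO and of 1449 and 877 CPM in WT. WT replicate 2 and dKO replicate 2 stood apart. Granulocyte progenitor markers (Mpo, Elane, Prtn3, Ctsg, Ms4a3, Cebpe, Gfi1 and Fcnb) summed to 11107 to 15761 CPM in the dKO libraries, against 6471 CPM in WT replicate 1 and 42271 CPM in WT replicate 2, and all 8 were highest in WT replicate 2 and had a log2 fold change below 0. The dKO replicate 2 library was the shallowest, with 12894 genes detected against up to 16098, and correlated with no other library above 0.851.

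Transcripts of complex I subunits were mostly lower in dKO stem cells than in WT, without any single gene passing the test. Of the 36 subunits, all of which were measured well enough to be tested, 35 had a log2 fold change below 0, against 47.8% of all tested genes (52.2% were above 0), and the median was -0.48 against 0.04 over all genes. The values ran from -0.87 for Ndufb6 to 0.18 for Ndufb2, and 50% of the subunits lay between -0.65 and -0.39. None was called at a p under 0.05 in the quasi-likelihood test of edgeR after Benjamini-Hochberg adjustment, where 0% of all genes were called lower and 0% higher; the smallest adjusted p among the subunits was 0.434, for Ndufv2. At an unadjusted p under 0.05, 13 of 36 subunits (36.1%) were lower and 0 higher, beside 5.19% and 4.94% of all tested genes. In 27 subunits (75%) every dKO library lay below every WT library, beside 15.6% of all tested genes, and in none did every dKO library lie above. DESeq2 also called 0 of the 36 subunits at an adjusted p under 0.05, while it called 0.664% of all genes lower and 1.12% higher. It gave 16 subunits an unadjusted p under 0.05, all of them lower. Of all tested genes, 782 (5.71%) were lower at that p in DESeq2 and 998 higher. In bulk RNA, fewer cells with high levels and less RNA per cell cannot be told apart.

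The number of subunits lower at an unadjusted p under 0.05 rested on which libraries were compared. Without dKO replicate 1 it was 5 of 36, beside 4.59% of all genes lower. Without dKO replicate 2 it was also 5, beside 4.48% of all genes lower. Without dKO replicate 3 it was 21, beside 4.75% of all genes lower. In these fits 0 subunits were higher at that p, and the median log2 fold change lay between -0.62 and -0.43. Leaving out a WT library leaves that group without replicates, so only effect sizes are given here. Without WT replicate 2 the subunit median was -0.37, with 34 of 36 lower. Without WT replicate 1 all 36 subunits were lower, with a median of -0.63 against 0.16 over all genes.

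**Figure D1:**
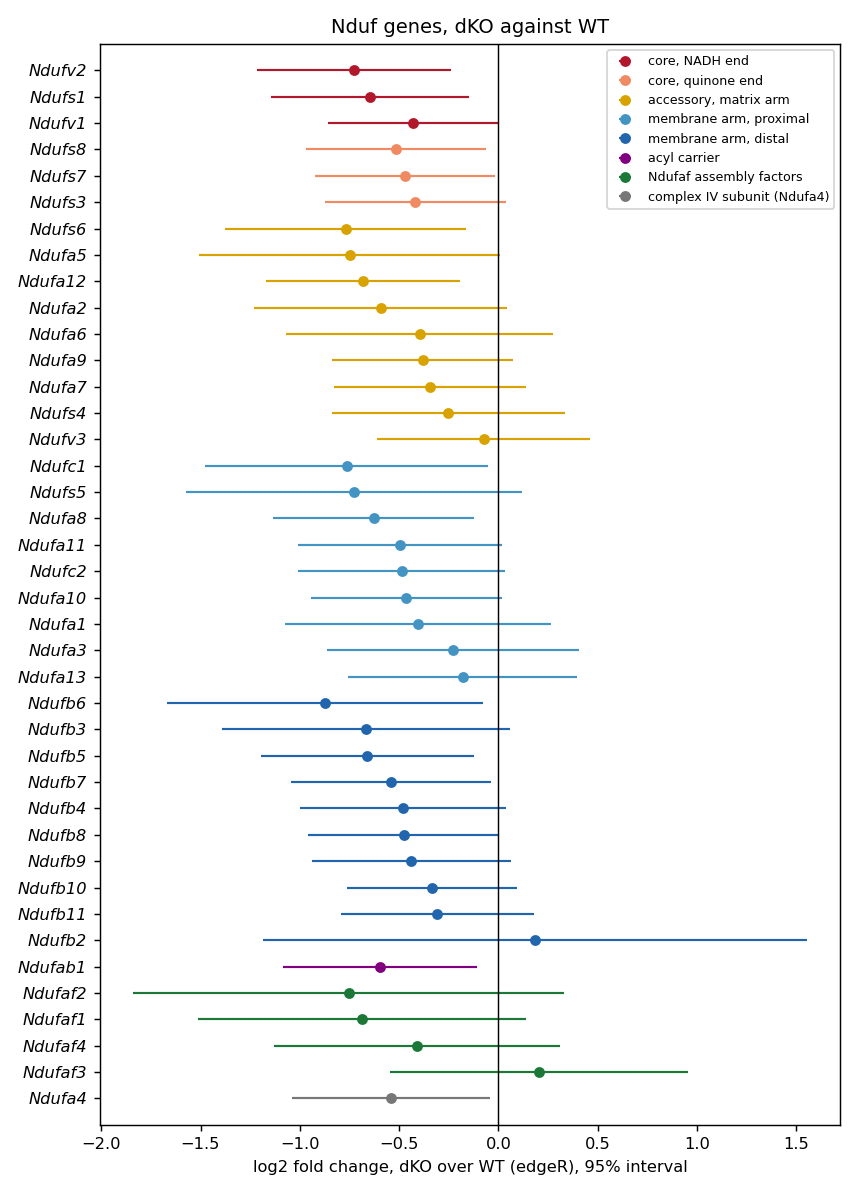
Log2 fold change of the tested Nduf genes shown, dKO over WT, from edgeR (x axis), with 95% intervals as lines and genes grouped by role on the y axis. All but Ndufb2 and Ndufaf3 lie left of 0, and most intervals reach 0 or come close to it.

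Promoter windows are shown for subunits whose transcripts were lower together, because nuclear genes of the respiratory chain are known targets of NRF1, ETS-family factors such as GABP, YY1 and the oestrogen-related receptors. RefSeq windows of 300 bases, 250 before and 50 after the annotated gene start (GRCm38.p6), matched 37 of the 42 genes and 32 of the 36 subunits. Motifs were searched on both strands as exact letters. Below, the windows are read 5′ to 3′ on the strand of the gene, and capitals mark a motif. Ndufs6 (chr13:73328433-73328732, minus strand) had an NRF1 match starting 16 bases before the gene start and a YY1 match starting 34 bases after it. Ndufb4 (chr16:37654319-37654618, minus strand) had NRF1 matches starting 191, 79 and 22 bases before the start. Ndufa8 (chr2:36049289-36049588, minus strand) had an NRF1 match 30 bases before the start, and Ndufs3 (chr2:90904672-90904971, minus strand) had an ETS match on each side of the start.
Ndufs6: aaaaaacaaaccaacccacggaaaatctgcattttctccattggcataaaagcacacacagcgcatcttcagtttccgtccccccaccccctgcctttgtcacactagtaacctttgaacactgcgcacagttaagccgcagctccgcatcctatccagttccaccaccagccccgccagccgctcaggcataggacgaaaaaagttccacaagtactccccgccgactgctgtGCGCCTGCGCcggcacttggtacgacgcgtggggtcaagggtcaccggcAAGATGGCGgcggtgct
Ndufb4: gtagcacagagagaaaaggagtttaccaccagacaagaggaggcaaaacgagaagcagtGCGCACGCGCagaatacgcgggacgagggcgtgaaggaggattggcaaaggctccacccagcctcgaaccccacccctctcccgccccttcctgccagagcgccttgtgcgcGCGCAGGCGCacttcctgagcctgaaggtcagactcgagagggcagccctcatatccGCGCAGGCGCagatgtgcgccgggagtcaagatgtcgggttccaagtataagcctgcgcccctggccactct
Ndufa8: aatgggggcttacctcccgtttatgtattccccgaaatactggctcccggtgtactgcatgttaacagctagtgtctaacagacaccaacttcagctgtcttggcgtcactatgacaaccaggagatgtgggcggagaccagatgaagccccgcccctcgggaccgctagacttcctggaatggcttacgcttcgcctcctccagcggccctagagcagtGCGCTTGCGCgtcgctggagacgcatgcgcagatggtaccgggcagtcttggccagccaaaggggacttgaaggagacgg
Ndufs3: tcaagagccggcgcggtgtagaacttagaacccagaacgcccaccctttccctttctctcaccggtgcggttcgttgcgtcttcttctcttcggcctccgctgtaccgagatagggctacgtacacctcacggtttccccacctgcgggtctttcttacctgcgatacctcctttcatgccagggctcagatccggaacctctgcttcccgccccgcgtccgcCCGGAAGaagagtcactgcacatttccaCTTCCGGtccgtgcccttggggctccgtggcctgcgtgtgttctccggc

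The NRF1 motif, searched as GCGCA, any base and GCGC, was present in 8 of 34 subunit windows (23.5%), beside 4.60% of all 32851 windows of the same length. It marked 7 of the 32 subunits with a window: Ndufa5, Ndufa6, Ndufa8, Ndufa11, Ndufb4, Ndufs5 and Ndufs6. Both Ndufa5 windows overlap and hold the same site, which was counted in each. The set of all windows was not matched to the subunits for expression or GC content. The ETS motif CCGGAAG was present in 4 of the 34 windows (11.8%), beside 8.86% of all windows, and the YY1 motif AAGATGGCG in 5 (14.7%), beside 1.40%. The motif of the oestrogen-related receptors, TCAAGGTCA, was in 0 of the 34, beside 0.423% of all. None of these motifs contains another. The median log2 fold change was -0.63 over the 7 subunits with an NRF1 match and -0.46 over the 25 without one. Those 7 ranged from -0.77 for Ndufs6 to -0.40 for Ndufa6. For YY1 the medians were -0.47 for the 5 with and -0.48 for the 27 without a match. Neither difference was tested. A match describes these letters and does not show that a factor binds there.

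The matrix arm begins with the module that oxidises NADH. Its 3 core subunits all had an unadjusted p under 0.05, with a median log2 fold change of -0.65. Over all tested genes, 5.19% were lower at that p. Ndufv2, which carries an iron-sulphur cluster next to the flavin, had 192, 163 and 231 CPM in dKO, against 295 and 352 CPM in WT (log2 fold change -0.73, 95% interval -1.22 to -0.24, adjusted p = 0.434). Ndufs1, the largest core subunit and a carrier of several clusters, had 120.2, 96.6 and 121 CPM in dKO, against 157 and 195 CPM in WT (-0.65, -1.14 to -0.15, adjusted p = 0.441). Ndufv1, which binds the flavin and NADH itself, had 171, 191 and 211 CPM in dKO, against 251 and 264 CPM in WT (-0.43, -0.86 to just under 0, adjusted p = 0.491). For each of the 3 genes the highest dKO library stayed below the lowest WT library, beside 15.6% of all tested genes.

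The module that hands electrons to ubiquinone is formed by further core subunits. Ndufs8, which holds a pair of iron-sulphur clusters, had 173, 183 and 220.4 CPM in dKO, against 253 and 296 CPM in WT (-0.52, -0.97 to -0.06, adjusted p = 0.460). Ndufs7, which carries the last cluster before ubiquinone, had 148, 131 and 122 CPM in dKO, against 175 and 196 CPM in WT (-0.47, -0.92 to -0.01, adjusted p = 0.491). Each of these had an unadjusted p under 0.05. Ndufs3, a structural core subunit around which the matrix arm is assembled, had 152, 134 and 161 CPM in dKO, against 182 and 217 CPM in WT (-0.42, -0.88 to 0.04, adjusted p = 0.526). As in the NADH module, the libraries of the groups did not overlap in any of these 3 genes, beside 15.6% of all tested genes in that direction.

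**Figure D2:**
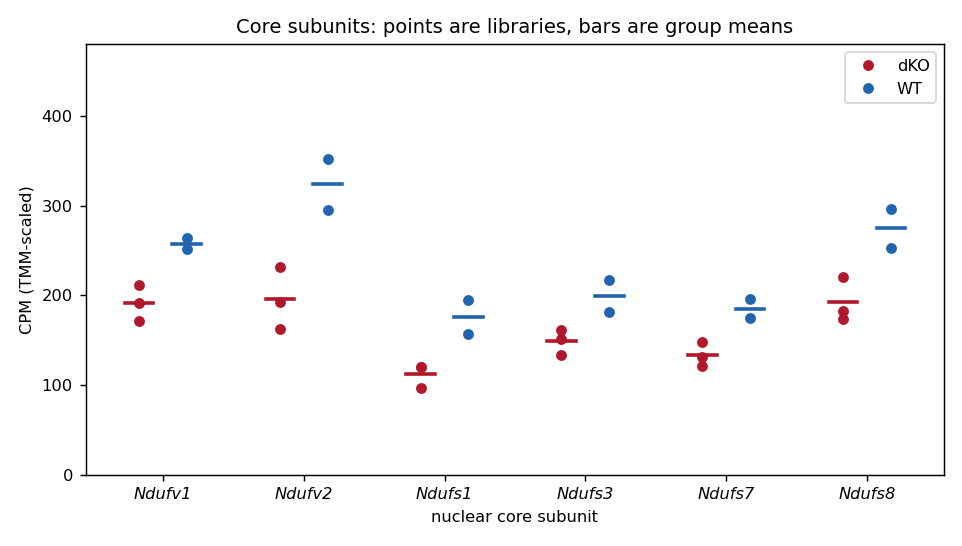
CPM of the core subunits named in the text (y axis, linear from 0) in each library, with dKO libraries left of WT libraries for every gene and horizontal bars at the group means. In each gene the 3 dKO points lie below the 2 WT points.

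Among the 9 accessory subunits of the matrix arm, all 9 were lower, with a median of -0.40. Of them, 2 (22.2%) had an unadjusted p under 0.05 and 5 (55.6%) had no overlap between groups. Over all tested genes, 5.19% were lower at that p and 15.6% had every dKO library below every WT library. Ndufa12, which takes the place of the assembly factor Ndufaf2 late in assembly, had 164, 153 and 219 CPM in dKO, against 284 and 289.6 CPM in WT (-0.68, -1.17 to -0.19, adjusted p = 0.436). Ndufs6, a zinc-binding subunit whose promoter window holds the NRF1 and YY1 matches printed above, had 104, 69.9 and 108 CPM in dKO, against 139 and 181 CPM in WT (-0.77, -1.38 to -0.16, adjusted p = 0.441). These 2 are the genes below the unadjusted threshold. Ndufa5, which sits beside the quinone module, had 72.5, 38.3 and 65.7 CPM in dKO, against 84.5 and 113 CPM in WT (-0.75, -1.51 to 0.01, adjusted p = 0.501). Ndufa2, with a thioredoxin-like fold, had 168, 128 and 233 CPM in dKO, against 232 and 299.9 CPM in WT (-0.59, -1.23 to 0.04, adjusted p = 0.525). In Ndufa2 dKO replicate 3 stood level with WT replicate 1, so the groups overlapped. The other 5, Ndufa6, Ndufa7, Ndufa9, Ndufs4 and Ndufv3, ranged from -0.40 to -0.07.

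The part of the membrane arm nearest the matrix arm has 9 accessory subunits, all lower, with a median of -0.49. An unadjusted p under 0.05 was found in 2 (22.2%), beside 5.19% of all tested genes in that direction. The groups did not overlap in 6 (66.7%), beside 15.6% of all tested genes in that direction. Ndufa8, a subunit on the side of the intermembrane space with an NRF1 match in its window, had 199, 177 and 264 CPM in dKO, against 311 and 347 CPM in WT (-0.63, -1.13 to -0.12, adjusted p = 0.441). Ndufc1, a small protein with a single membrane helix, had 67.7, 57.3 and 99.0 CPM in dKO, against 102 and 152 CPM in WT (-0.76, -1.48 to -0.05, adjusted p = 0.475). In Ndufc1 dKO replicate 3 came within a few CPM of WT replicate 1. Ndufa10, a protein with the fold of a nucleoside kinase, had 194, 229 and 198 CPM in dKO, against 241 and 330.1 CPM in WT (-0.46, -0.94 to 0.02, adjusted p = 0.509). Ndufa11, embedded in the membrane, had 106, 92.0 and 128 CPM in dKO, against 145 and 161 CPM in WT (-0.49, -1.01 to 0.02, adjusted p = 0.511). The other 5, Ndufa1, Ndufa3, Ndufa13, Ndufc2 and Ndufs5, ranged from -0.72 to -0.18, and the groups overlapped in Ndufa1, Ndufa3 and Ndufa13. Without WT replicate 2 the log2 fold change of Ndufa10 was -0.22 and that of Ndufc1 -0.46.

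The far end of the membrane arm holds 10 of the accessory subunits, of which 9 were lower, with a median of -0.48. An unadjusted p under 0.05 was found in 3 (30%), beside 5.19% of all tested genes in that direction. The groups did not overlap in 8 (80%), beside 15.6% of all tested genes in that direction. Ndufb5, with a single membrane helix, had 101, 104 and 109 CPM in dKO, against 132 and 198 CPM in WT (-0.66, -1.20 to -0.12, adjusted p = 0.441). The dKO libraries were close together there, and WT replicate 2 was far above the rest. Ndufb6, the lowest of all subunits in fold change, had 60.2, 34.1 and 70.0 CPM in dKO, against 86.2 and 114 CPM in WT (-0.87, -1.67 to -0.08, adjusted p = 0.468). Ndufb7, which faces the intermembrane space, had 204, 225 and 283 CPM in dKO, against 301 and 391 CPM in WT (-0.54, -1.04 to -0.04, adjusted p = 0.475). Ndufb8, another membrane-spanning subunit, had 271, 309.6 and 389 CPM in dKO, against 414 and 486 CPM in WT (-0.48, -0.96 to 0.00, adjusted p = 0.501). Of the others, Ndufb3, Ndufb4, Ndufb9, Ndufb10 and Ndufb11 ranged from -0.67 to -0.31. Ndufb2 was the exception to the direction, with 13.9, 12.2 and 8.34 CPM in dKO, against 7.49 and 12.7 CPM in WT (0.18, -1.18 to 1.55, adjusted p = 0.965). Its libraries were interleaved, and its counts were the lowest of all subunits. The sign was not stable: without WT replicate 1 it stood at -0.15, and in TPM at -0.22 on the log2(TPM + 1) scale, with 179.8, 159 and 155 TPM in dKO, against 181 and 204 TPM in WT. Without WT replicate 2 the log2 fold changes of Ndufb5 and Ndufb7 were -0.35 and -0.34.

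Ndufab1, the mitochondrial acyl carrier protein, occurs in both arms and also serves fatty acid synthesis. It had 137, 133 and 157 CPM in dKO, against 183 and 247 CPM in WT (-0.60, -1.08 to -0.11, adjusted p = 0.441), with no overlap. Its TPM went the other way, at 200.3, 159.9 and 209 in dKO and 166 and 159 in WT, so the direction depended on the deposited measure. In counts without WT replicate 2 it stood at -0.37. Across the subunits the matrix arm and the membrane arm had similar values, with a median of -0.45 and 16 of 16 lower in the matrix arm and a median of -0.48 and 18 of 19 lower in the membrane arm; the difference between the arms was not tested.

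Counted by library, the subunits did not fall into 2 tight groups. The mean deviation of the subunits from their own 5-library means, in log2 CPM, was -0.23 in dKO replicate 1, -0.38 in dKO replicate 2 and 0.02 in dKO replicate 3, against 0.14 in WT replicate 1 and 0.45 in WT replicate 2. WT replicate 2 held the highest value of 33 of the 36 subunits, while dKO replicate 2 held the lowest of 21 and dKO replicate 1 the lowest of 12. The closest pair across the groups was dKO replicate 3 and WT replicate 1, with a median log2 ratio of -0.14 and 27 of 36 subunits lower in the dKO library. Set against the same WT library, dKO replicate 1 had a median of -0.42 with 33 lower and dKO replicate 2 a median of -0.45 with 34 lower. The 2 WT libraries themselves differed by a median of -0.36, WT replicate 1 over WT replicate 2, with 35 of 36 subunits lower in WT replicate 1. The library with the highest subunit levels was the one with 42271 CPM of granulocyte progenitor markers; their part in the result was not tested. With that library left out the median was -0.37.

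**Figure D3:**
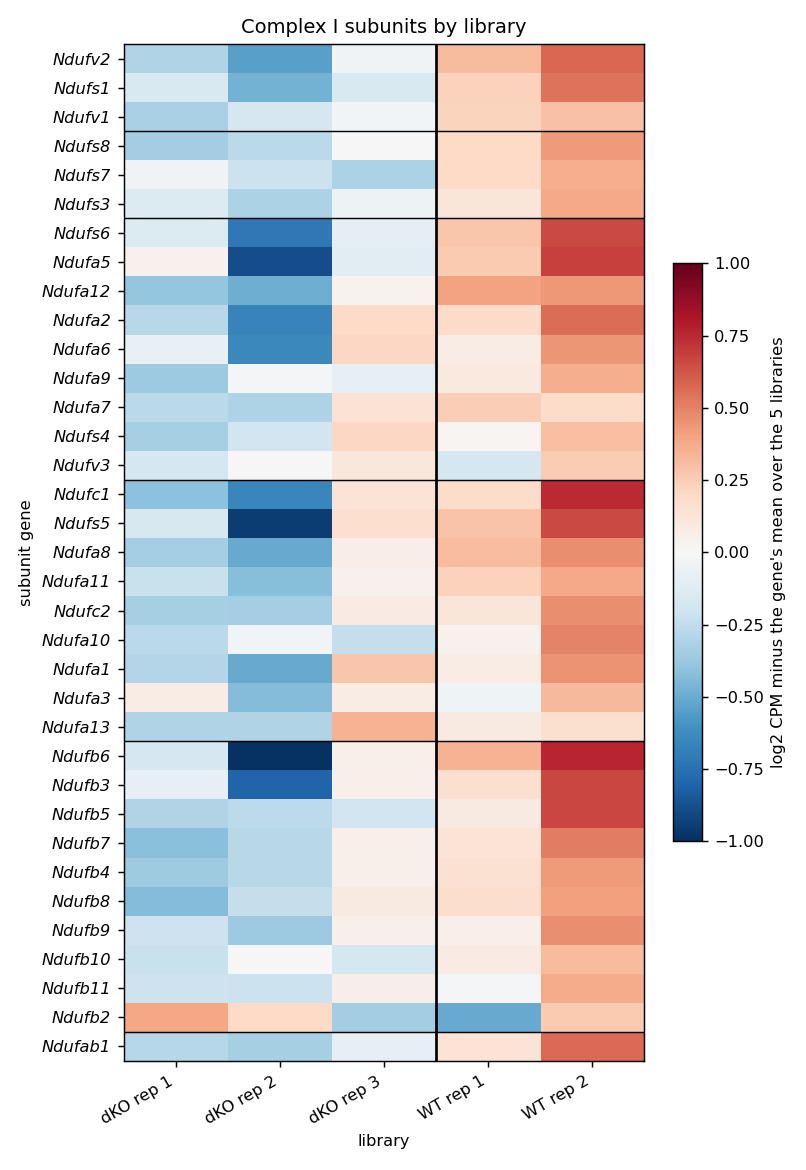
Log2 CPM of the subunits shown, each minus its mean over the 5 libraries (colour scale, red higher and blue lower), with libraries on the x axis, dKO left of the thick line and WT right of it, and subunits grouped by role on the y axis. WT replicate 2 is red in nearly every row and dKO replicate 2 holds the darkest blue, while dKO replicate 3 and WT replicate 1 are paler.

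The summed levels of other marker lists also varied. Between the groups they did not overlap for erythroid, megakaryocyte, and dendritic cell and monocyte genes. They overlapped for B lineage genes and for mast cell and basophil genes. Summed levels were 187 to 210.1 CPM in dKO and 103 and 111 CPM in WT for erythroid genes, and 100.4 to 126 CPM in dKO and 72.2 and 60.6 CPM in WT for megakaryocyte genes. Dendritic cell and monocyte genes summed to 388 to 762 CPM in dKO and to 239 and 249 CPM in WT. B lineage genes summed to 114 to 294 CPM in dKO and to 145 and 103 CPM in WT. Mast cell and basophil genes summed to 320.0 to 968 CPM in dKO and to 192 and 404 CPM in WT. Of the 5 T and NK cell genes only the 2 tested were summed, to 562 to 688 CPM in dKO and to 705 and 1881 CPM in WT. The log2 fold changes of those 2 genes were -1.02 and 3.09, so their sum does not describe both. A log2 fold change above 0 was found in 6 of 8 erythroid, 5 of 5 megakaryocyte, 6 of 6 dendritic and monocyte, 5 of 6 B lineage, 5 of 6 mast cell and basophil, and 1 of the 2 tested T and NK cell genes. The T and NK cell list had 2 or 3 of its 5 genes at 0 counts in each library and the erythroid list 1 gene at 0 in dKO replicate 2, and no other list had a gene at 0. Their part in the subunit values was not tested.

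The deposited TPM, values scaled to transcript length and library size, gave a smaller difference in the same direction for most subunits. Summed over the 36 subunits, TPM was 10572, 9878 and 11780 in dKO, with a mean of 10743 ± 962 (SD, n = 3), and 12517 and 13504 in WT, with a mean of 13010 ± 698 (SD, n = 2), a ratio of 0.826. Every dKO sum lay below both WT sums. On the log2(TPM + 1) scale, which understates the change of low genes, 33 of 36 subunits were lower, beside 39.6% of the 12948 genes tested, and the median was -0.25. The median of all genes was 0.15 on that scale and 0.04 in counts, so relative to all genes the subunits stood at -0.40 in TPM and -0.52 in counts. By limma 5 subunits (13.9%) were lower at an unadjusted p under 0.05 and 0 higher, and 0 passed adjustment. Of all 12948 genes, 337 (2.60%) were lower at that p and 900 higher. The 3 subunits above 0 in TPM were Ndufab1, Ndufb10 and Ndufa13. Ndufb10 had 471, 491 and 424 TPM in dKO, against 316 and 459 TPM in WT, while its CPM was 196, 227 and 202 in dKO, against 241 and 284 in WT. Across the 36 subunits the log2 fold changes of the 2 measures had a Pearson r of 0.62 and a Spearman rho of 0.74, a description over genes that share the same 5 libraries and are not independent.

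**Figure D4:**
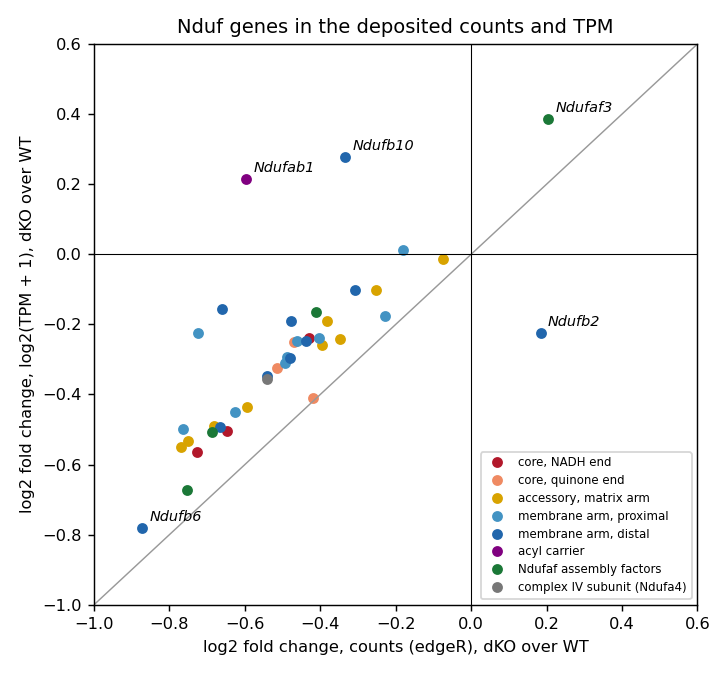
Log2 fold change of the Nduf genes shown, dKO over WT, in the counts (x axis, edgeR) and in the TPM (y axis, log2(TPM + 1)), coloured by role, with the grey diagonal marking equal values. Most genes lie in the lower left above the diagonal, and Ndufab1, Ndufb10, Ndufb2 and, just above 0 in TPM, Ndufa13 differ in sign between the measures.

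Levels per transcript length, given here as mean TPM over the 5 libraries, spanned a 9.64-fold range among the subunits, with a median of 313 TPM. Ndufb7 had the highest mean level, 771 TPM, with libraries from 625 to 932 TPM, followed by Ndufa2 at 686 TPM and a range of 459 to 850.4 TPM. The ranges of these neighbours overlapped. Ndufa11 was lowest at 80.0 TPM. For Ndufb2 the level depended strongly on the measure: it had a mean of 10.9 CPM but of 176 TPM, and its TPM was 38.9 times its CPM per kilobase, while for the other tested Nduf genes that ratio lay between 0.345, for Ndufa11, and 2.89, for Ndufb6.

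Several Nduf genes share sequence with another gene, which makes their counts less certain. Of the 42 genes, 8 had a pseudogene of at least 95% identity over at least 200 bases in the GENCODE M21 annotation. Most of these pseudogenes had at most 8 counts in any library. The exceptions were Gm15920, 99.5% identical to Ndufa12, with 1168, 629 and 1641 counts in dKO and 1962 and 2086 counts in WT, and BC002163, 99.4% identical to Ndufs5, with 1589, 528 and 1997 counts in dKO and 2120 and 2637 counts in WT. Their log2 fold changes were -0.74 (adjusted p = 0.471) and -0.76 (adjusted p = 0.532). How reads were shared between each pair is not given, so the levels of Ndufa12 and Ndufs5 are uncertain. Exons of 14 of the 42 genes overlap an exon of another gene on the opposite strand, and the library method does not mark strand. The overlap took over 25% of all annotated exon bases of the gene in Ndufb6 (39.0%) and Ndufa13 (29.98%) only. The share of a single transcript was not computed and can differ. In Ndufb5, 616 of 4995 exon bases overlapped, and in Ndufs1 489 of 8086. Their transcript lengths, as medians over protein-coding transcripts, were 625 and 651 bases. Reads from a shared part cannot be assigned to either gene.

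The assembly factors had wide intervals. Of the 4 Ndufaf genes 3 were lower and 1 higher in dKO, with a median of -0.55, beside 47.8% of all tested genes lower. None had an unadjusted p under 0.05, and the smallest adjusted p was 0.561. Ndufaf1, which works in the membrane-arm assembly complex, had 63.7, 29.9 and 51.7 CPM in dKO, against 69.2 and 86.9 CPM in WT (-0.69, -1.51 to 0.14, adjusted p = 0.561). It was the only one of the 4 without overlap (25%), beside 15.6% of all tested genes in that direction. Ndufaf2, the paralogue of Ndufa12 that holds its place during assembly, had 29.9, 11.6 and 19.2 CPM in dKO, against 29.4 and 38.9 CPM in WT (-0.75, -1.84 to 0.33, adjusted p = 0.637). In Ndufaf2 dKO replicate 1 stood level with WT replicate 1. Ndufaf3 and Ndufaf4 act as partners on the quinone module, and their values, though of opposite sign, rested on single libraries. Ndufaf4 had 77.8, 89.1 and 55.7 CPM in dKO, against 75.3 and 122 CPM in WT (-0.41, -1.13 to 0.31, adjusted p = 0.730). Ndufaf3 had 44.7, 36.8 and 54.3 CPM in dKO, against 33.8 and 44.8 CPM in WT (0.20, -0.55 to 0.95, adjusted p = 0.908). The libraries of both overlapped. Without WT replicate 2 Ndufaf4 stood at -0.03, and without WT replicate 1 Ndufaf3 stood at 0.0083. Without dKO replicate 2 Ndufaf1 stood at -0.43 and Ndufaf2 at -0.47. Without WT replicate 2 the median of the 4 was -0.27.

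The assembly factors Ndufaf5 to Ndufaf8 stand in the files under older clone names and so fall outside the naming rule. All 4 had a log2 fold change below 0, beside 47.8% of all tested genes, with a median of -0.74 and no unadjusted p under 0.05. A further list of 12 factors that assemble complex I included Aifm1, which helps to import and fold its subunits, with 117, 85.9 and 144 CPM in dKO, against 175 and 252 CPM in WT (-0.88, adjusted p = 0.436). In that list 11 of 12 were lower, beside 47.8% of all tested genes, with a median of -0.40. At an unadjusted p under 0.05, 1 (8.33%) was lower, beside 5.19% of all tested genes. Ecsit, a partner of Ndufaf1, had 59.5, 56.0 and 52.3 CPM in dKO, against 60.0 and 94.9 CPM in WT (-0.47, adjusted p = 0.625).

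The core of the membrane arm is encoded by 7 mt-Nd genes of the mitochondrial genome, and these were divided in direction. In counts 3 of the 7 were lower and 4 higher, beside 47.8% of all tested genes lower. Their median was 0.14, with a range from -0.80 to 0.27. None had an unadjusted p under 0.05. The lowest p was that of mt-Nd1, with 1416, 1005 and 1420.3 CPM in dKO, against 1842 and 1717 CPM in WT (-0.47, adjusted p = 0.501). The next, mt-Nd2, had 315, 241 and 382 CPM in dKO, against 286 and 233 CPM in WT (0.27, adjusted p = 0.779). The difference between nuclear and mitochondrial subunits was not tested. The mt-Nd4 counts and TPM were out of proportion, with 22704 counts but 2.09 TPM in WT replicate 1, so levels of the mitochondrial genes are uncertain.

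The nuclear subunits of the other respiratory complexes had values close to those of complex I. Of 40 genes of complexes II to V, 38 were lower, beside 47.8% of all tested genes, with a median of -0.50. At an unadjusted p under 0.05, 19 (47.5%) were lower, beside 5.19% of all tested genes. By complex, the medians were -0.38 for the 4 genes of complex II, -0.53 for the 9 of complex III, -0.50 for the 11 of complex IV and -0.52 for the 16 of complex V. Cox5b of complex IV had 221, 180.1 and 228 CPM in dKO, against 293 and 378 CPM in WT (-0.68, adjusted p = 0.436). Ndufa4, the Nduf-named gene that belongs with complex IV, had 281, 237 and 339.7 CPM in dKO, against 366 and 466 CPM in WT (-0.54, -1.04 to -0.04, adjusted p = 0.473), with no overlap between the groups. Its paralogue Ndufa4l2 had 0 counts in all 5 libraries, which allows up to 0.107 to 0.187 CPM by library. Whether complex I differed from the other complexes was not tested.

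Genes tied to mitochondrial content also had mostly negative values. In a list of 12 import, chaperone and outer membrane genes 11 were lower, beside 47.8% of all tested genes, with a median of -0.53. At an unadjusted p under 0.05, 5 (41.7%) were lower, beside 5.19% of all tested genes. Among them Hspd1, the mitochondrial chaperonin, had 541, 417 and 471 CPM in dKO, against 686 and 1034 CPM in WT (-0.85, adjusted p = 0.430). Genes that supply iron-sulphur clusters, which complex I needs, had 10 of 13 lower, beside 47.8% of all tested genes, and a median of -0.40. At an unadjusted p under 0.05 none of them was lower, beside 5.19% of all tested genes. At that threshold 1 (7.69%), Isca1, was higher (0.59, adjusted p = 0.491), beside 4.94% of all tested genes. The 12 transcriptional regulators of mitochondrial biogenesis were divided, with 6 lower, 6 higher and a median of -0.01. Over all tested genes 47.8% were lower. None of the 12 had an unadjusted p under 0.05.

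**Figure D5:**
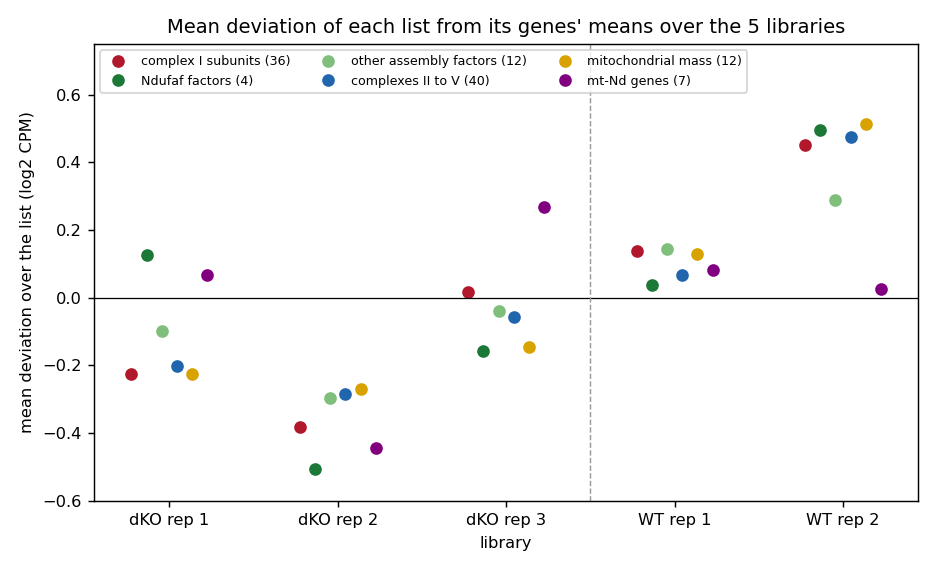
Mean deviation of each gene list from its genes' own means over the 5 libraries (y axis, log2 CPM), by library on the x axis, dKO left of the dashed line and WT right of it, with list sizes in the legend. Complex I subunits, complexes II to V and the mitochondrial mass list lie near each other in every library, highest in WT replicate 2, whereas the mt-Nd genes are highest in dKO replicate 3.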

How the data were processed

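RNA from sorted stem cells was sequenced by Smart-seq2, per the labels' protocols. The authors deposited raw counts per gene and, separately, TPM for each of the 5 libraries. Per the submitters' processing notes, the build was mm9 and the tools were TopHat2 2.1.1, RSEM 1.2.31, HTSeq, DESeq2, Trimmomatic and FastQC 0.11.5. The sources used here do not say which tool made which values. Of 33924 entries per file, 30 name no gene (0.216% to 0.269% of counts) and were left out.

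Counts were tested with edgeR 4.0.16 (R 4.3.3): TMM scaling, filterByExpr, robust quasi-likelihood fit, all 5 libraries, no covariate, and Benjamini-Hochberg adjustment over 13696 genes at 0.05. Intervals on fold changes follow from the test's statistic and its degrees of freedom. The biological coefficient of variation was 67.9%. TPM was tested with limma 3.58.1 on log2(TPM + 1), keeping genes with at least 1 TPM in 2 libraries. No list was tested: counts by direction and medians stand beside those of all genes. The same results were computed with DESeq2 1.42.0, with sample-weighted limma-voom, under other scalings and filters, with a pseudocount of 0.1, after removal of a length and GC trend, with a replicate block and without each library. The computation was first run on simulated counts, from which no value is reported. Limits for genes at 0 use 3 counts per library and cover counting error only.

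The members and the lists were chosen with earlier results of these data known. Given in full are the nuclear core subunits, up to 4 members per other role with the smallest p, and the highest and lowest fold change of subunits and of assembly factors; up to 3 genes per context list may be named. A subunit that this rule would name is not reported here. Other genes that carry single values (Ndufb10, Ndufb4 for its promoter, the pseudogenes, mt-Nd4 and those of overlapping exons) were chosen after their values were seen. Gene overlaps and lengths are from GENCODE M21 (GRCm38), sequence matches from BLAST 2.17.0, and promoters from RefSeq; no coordinates of the files' own build are given.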

Additional observations from a re-analysis of the deposited data

How the results depend on the processing

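With TMM, RLE or upper quartile scaling, either count filter, DESeq2 or voom, the subunit median stayed between -0.49 and -0.45 and 35 of 36 subunits were lower. In TPM the median was -0.25, with a pseudocount of 1 (filtered or not) or 0.1. Leaving out each library gave medians of -0.63 to -0.37 for the subunits and -0.78 to -0.27 for the Ndufaf genes. With the length and GC trend removed it was -0.45 for the subunits, beside -0.03 for all genes.

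Counts of called genes over all genes depended on the setting, whereas no subunit or Ndufaf gene was called in any setting with a test. Against 0 higher and 0 lower in edgeR, DESeq2 called 154 higher and 91 lower, edgeR without a filter 5 and 3, limma on log2(TPM + 1) 7 and 3, and with a pseudocount of 0.1 it called 2 higher. Leaving out each library gave 0 to 2 higher and 0 to 3 lower. Of 416 values of named members under 16 alternatives, 409 kept their direction and 7 reversed. None passed the adjusted threshold in any alternative with a test. Many named members were chosen by p or fold change in the main fit, and the alternatives reuse the same libraries. Agreement in direction was therefore in part set by that choice. Ndufab1 stood at 0.21 in TPM (0.22 with a pseudocount of 0.1). Ndufb2 stood at -0.22 in TPM (-0.23 with a pseudocount of 0.1) and between -0.15, without WT replicate 1, and 0.61 when each library was left out. The cause was not tested.

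The libraries share only a replicate number: deviations from the group means correlated at 0.03 and 0.05 between libraries of the same number. With the replicate number as a block, 1 gene was called higher, and the subunit median was -0.62 beside -0.06 for all genes. In that fit 18 subunits were lower at an unadjusted p under 0.05 and 0 higher, and 0 passed adjustment. Of all genes, 618 (4.51%) were lower at that p and 550 higher. There is no WT replicate 3, so dKO replicate 3 stood alone in its block and added nothing to the fold change. Without dKO replicate 3 and without a block the subunit median was also -0.62.

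With 2 WT libraries, what belongs to WT replicate 2 and what to its genotype cannot be told apart, and the depth of dKO replicate 2 (16028512 counts) limits values for genes of low counts such as Ndufb2.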
